A study of Mus musculus with 39 samples.

Results

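The autophagy and lysosome genes described here are 37 genes of the 46078 in the count files: the initiation, nucleation and conjugation machinery of autophagy, the LC3 and GABARAP proteins, cargo receptors with 2 chaperone-system genes, the transcription factors Tfeb and Tfe3, and 6 lysosomal genes. They were picked by gene symbol, each symbol was matched to 1 Ensembl identifier, and all 37 were among the 14689 genes abundant enough to test. RNA of gastrocnemius, a fast-fibre-rich calf muscle, was sequenced from C57BL/6 mice given Lewis lung carcinoma (LLC) cells in the hind flank at 8 weeks of age, a standard mouse model of cancer cachexia. The groups were PBS-injected controls with 0 days of tumour (8 libraries) and mice with 7 days (week 1, 8 libraries), 14 days (week 2, 7 libraries), 21 days (week 3, 7 libraries) and 28 days (week 4, 8 libraries) of tumour. The submitters describe wasting at the last time. The age of the PBS mice at collection is not in the labels, which also do not name separate animals or litters; p-values here measure no more than the spread among these libraries.

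Autophagy encloses cytoplasm, protein aggregates or organelles in a double membrane, the autophagosome, which then fuses with the lysosome, where acid hydrolases break the content down. A kinase complex around ULK1 starts the process, a lipid kinase complex around VPS34 marks the membrane, and a ubiquitin-like conjugation system attaches LC3 and GABARAP proteins to it, onto which receptors such as p62 dock their cargo. In skeletal muscle the pathway is known both for keeping fibres healthy and for protein loss during fasting, denervation and cachexia, with FoxO factors and TFEB as known transcriptional regulators.

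Reads in genes numbered 13356756 to 24801565 per library. Sequencing lane, as named for each library, was uneven between groups: lane 2 held 5 of the 8 week 4 libraries, 3 of week 1, 1 of week 2, 1 of week 3 and no PBS library. The other 3 week 4 libraries were run on lane 4, and PBS libraries only on lanes 5 and 6, so week 4 shared no lane with PBS. Of all genes, 35% differed between lane 2 and the other lanes within groups (edgeR, Benjamini-Hochberg adjusted p under 0.05). The week 4 calls are therefore also given from a fit that includes lane 2 as a term and from a fit of the 28 libraries of other lanes. Library 1 of week 3 stood apart in its summed level of 10 muscle fibre markers. This was 61940 CPM (read counts scaled to a common library size), against 111200 to 170600 CPM in the other 6 week 3 libraries. Over 8% of its reads lay in no gene (8.97%), as in library 3 of week 3 (10.6%) and library 6 of week 2 (10.1%). These and library 7 of week 1, with the most reads on nuclear copies of mitochondrial genes, are the 4 libraries of unusual read assignment. The fibre markers were detected in every library. Their summed level was 115331 to 164211 CPM in PBS muscle, 135899 to 197756 CPM at week 1, 152561 to 198520 CPM at week 2, 61938 to 170563 CPM at week 3 and 105745 to 165819 CPM at week 4.

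None of the 37 genes passed the test at weeks 1, 2 or 3 against PBS. At the same threshold 0.0613% of all genes passed at week 1, 0% at week 2 and 0.347% at week 3. At an unadjusted p under 0.05 the members numbered 3 at week 1, 1 at week 2 and 5 at week 3, where 8.67%, 7.78% and 10.7% of all genes passed at weeks 1, 2 and 3. DESeq2 and limma voom also called 0 of them at each of these weeks. The 5 at week 3 were 4 lysosomal genes and Tfeb: Gaa had a log2 fold change of 0.52 (edgeR adjusted p = 0.312), Ctsl 0.63 (adjusted p = 0.398), Tfeb 0.35 (adjusted p = 0.349), Lamp2 0.29 (adjusted p = 0.351) and Lamp1 0.17 (adjusted p = 0.431). For Ctsl this came with a median of 124.2 CPM at week 3 and 116.8 CPM in PBS muscle. A single week 3 library was high, library 1, at 613.6 CPM. Gaa, Tfeb, Lamp2 and Lamp1 also had their highest week 3 value on lane 6, the lane of library 1. These values were 592.2, 88.55, 192.6 and 598.3 CPM, against at most 416.4, 72.8, 168.8 and 479.1 CPM on lane 4. Their fold changes without library 1 are not given. The median log2 fold change of the members was -0.01 at week 1, 0.02 at week 2 and 0.13 at week 3. It was 0.28 at week 4, where the median over all genes tested was -0.02.

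At week 4, 15 of the 37 genes were higher than in PBS muscle and 0 were lower by edgeR. Among all genes 15.3% were called higher and 14.1% lower, 29.4% in all. At an unadjusted p under 0.05, 19 members were higher and 3 lower, where 20.6% of all genes were higher and 21.1% lower (41.7% in all). The members called lower were 0 by DESeq2 and 4 by limma voom. Without the 4 libraries of unusual read assignment, library 1 of week 3 among them, the count higher was again 15. Without library 5 of week 4 it was 10. The 15 were Vcp, Gaa, Sqstm1, Ctsl, Ulk1, Nbr1, Bag3, Ctsd, Uvrag, Atg13, Ambra1, Wipi2, Rb1cc1, Tfeb and Lamp2, with log2 fold changes of 0.32 to 1.18. The authors' deposited table of week 4 over PBS lists the same 15 as higher, and lists Map1lc3a as lower. With a lane 2 term in the fit all 15 fold changes were above 0 (0.06 to 0.79), and Sqstm1 and Gaa were still called, joined by Map1lc3b and Atg7, which makes 4 higher and 0 lower. In that fit 15 members had an unadjusted p under 0.05, against 24.5% of all genes. It called 3.44% of all genes higher and 2.2% lower. Without the lane 2 libraries, which leaves 3 week 4 libraries, 0 members were called, 4 had an unadjusted p under 0.05 (11.3% of all genes did), and 14 of the 15 fold changes were above 0 with a median of 0.22. That fit called 0.894% of all genes. No lane holds both groups, so a fit with lane terms sets them against each other through weeks 1 to 3, which share lanes with both. With a term for every lane 0 members were called, where 0.633% of all genes were, and 14 had an unadjusted p under 0.05, where 17.2% of all genes did. All 15 fold changes were above 0 in that fit (0.06 to 0.89, median 0.42), and that of Sqstm1 was 0.84 (adjusted p = 0.0845). The 15 were called as higher in these same libraries, so the signs of their fold changes in the lane fits are no separate support. No such count of signs over all called genes is given.

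**Figure D1:**
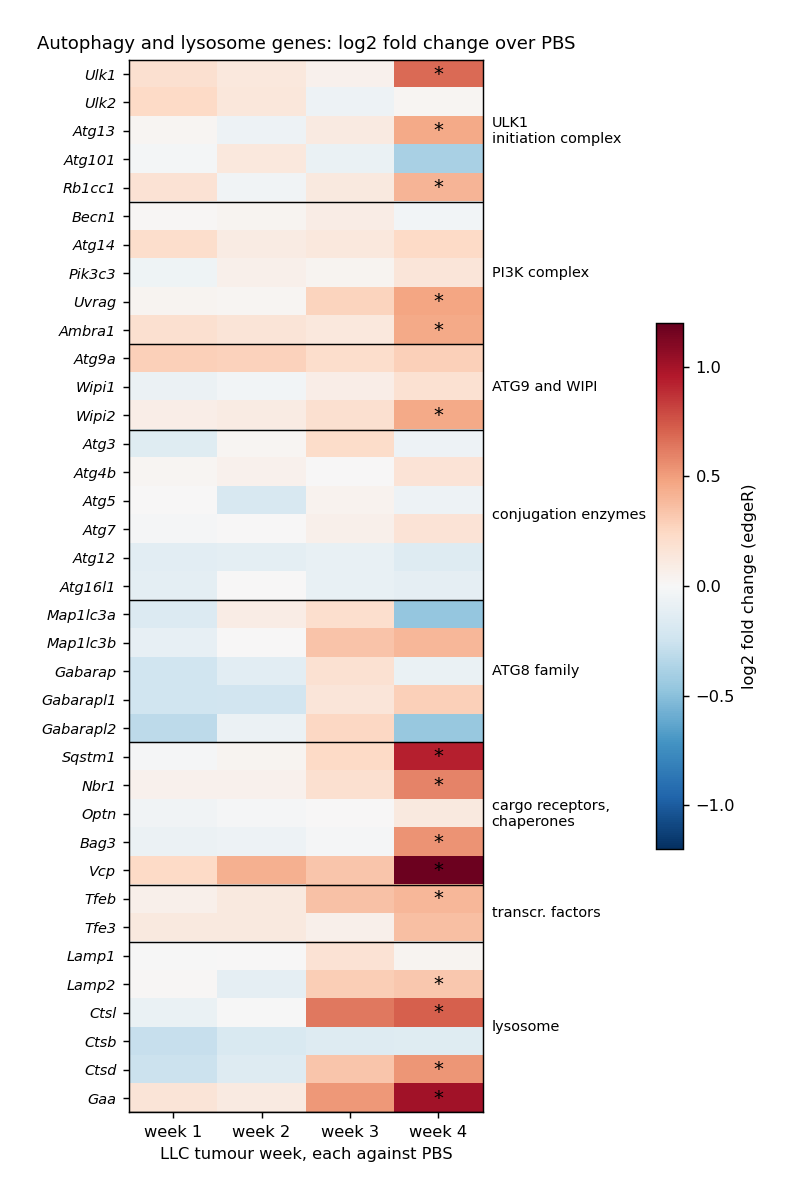
Heat map of the log2 fold change of each of the 37 genes (rows, grouped by role) at tumour weeks 1 to 4 against PBS (columns), from the edgeR fit of all 38 libraries, with an asterisk where the adjusted p was under 0.05. Asterisks stand in the week 4 column alone, at 15 genes, and in 4 of the 5 rows of cargo receptors and chaperones but in none of the 5 rows of the ATG8 family.

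Among cargo receptors and the chaperone system, 4 of 5 genes were called higher at week 4, where 15.3% of all genes were. Sqstm1 encodes p62, the receptor that links ubiquitinated cargo to LC3. Its level was 536, 926.9 and 1935 CPM (lowest, median and highest library) at week 4 and 455.1, 516.8 and 582.1 CPM in PBS muscle. All but 1 of the week 4 libraries lay above the highest PBS library. The fold change was 1.90 (log2 0.93 ± 0.17 SE, edgeR adjusted p = 0.000302), and it was 0.79 on the log2 scale with the lane 2 term (adjusted p = 0.013). In the fit of the other 28 libraries it was 0.55 (adjusted p = 0.199). By group the median was 516.8 CPM in PBS muscle, 518.9 CPM at week 1, 530.6 CPM at week 2, 509 CPM at week 3 and 926.9 CPM at week 4.

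Vcp, the ATPase p97 that pulls ubiquitinated proteins out of complexes and membranes, had the largest fold change of the 37. It reached 133.5, 193.2 and 718.3 CPM at week 4, against 100, 111.4 and 154.5 CPM in PBS muscle, with 5 of 8 week 4 libraries above all PBS libraries. Its log2 fold change was 1.18 ± 0.25 (edgeR adjusted p = 0.00103). The highest value came from library 5 of week 4, the shallowest of all 38, and without that library the log2 fold change was 0.76 (adjusted p = 0.00579). It was 0.72 with the lane 2 term (adjusted p = 0.0848) and 0.33 in the 28 libraries outside lane 2 (adjusted p = 0.538).

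Nbr1 is a second receptor for ubiquitinated cargo, and its product sits with p62 at the sarcomere's M-band. It stood at 117.4, 163.9 and 301.8 CPM at week 4 and 98.04, 118.4 and 133.3 CPM in PBS muscle, a log2 fold change of 0.60 ± 0.13 (edgeR adjusted p = 0.0012). Lane 2 was itself higher for Nbr1, and the value was 0.39 with the lane 2 term (adjusted p = 0.066) and 0.22 without the lane 2 libraries (adjusted p = 0.542). Bag3, a co-chaperone of autophagy of damaged sarcomere proteins, stood at 87.36, 122.5 and 264.4 CPM at week 4 and 74, 91.46 and 124.2 CPM in PBS muscle. Its log2 fold change of 0.53 ± 0.14 (edgeR adjusted p = 0.0066) was 0.32 without library 5 of week 4 (adjusted p = 0.032), 0.37 with the lane 2 term (adjusted p = 0.147) and 0.18 without the lane 2 libraries (adjusted p = 0.698). The week 4 and PBS ranges of both genes overlapped. Optn, a receptor for mitochondria and bacteria, had a log2 fold change of 0.12 and was not called.

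Of the 6 lysosomal genes, 4 were called higher at week 4, where 15.3% of all genes were. Gaa encodes acid alpha-glucosidase, the glycogen-degrading enzyme that is missing in Pompe disease. It measured 228, 445.5 and 768.1 CPM at week 4, against 203.4, 225.8 and 281.7 CPM in PBS muscle. In 7 of 8 week 4 libraries the level exceeded that of every PBS library. The fold change was 2.01 (log2 1.01 ± 0.19, edgeR adjusted p = 0.000349), 0.67 on the log2 scale with the lane 2 term (adjusted p = 0.033) and 0.46 without the lane 2 libraries (adjusted p = 0.41). By group its median was 225.8 CPM in PBS muscle, 245.8 CPM at week 1, 244.5 CPM at week 2, 307.1 CPM at week 3 and 445.5 CPM at week 4.

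The cathepsins, proteases of the lysosome, differed in their calls. Ctsd, an aspartic protease, reached 531, 748.4 and 1197 CPM at week 4, against 498.7, 534.9 and 803.3 CPM in PBS muscle (log2 fold change 0.53 ± 0.17, edgeR adjusted p = 0.016). Ctsl, a cysteine protease long used as a marker gene of muscle atrophy, reached 120.2, 173.5 and 439.6 CPM at week 4, against 107, 116.8 and 175.4 CPM in PBS muscle (0.72 ± 0.27, adjusted p = 0.041). Ctsb, another cysteine protease, measured 229.9, 279.3 and 340.2 CPM at week 4 and 240.3, 267.1 and 661 CPM in PBS muscle, and was not called (-0.15 ± 0.14, adjusted p = 0.44). In all 3 the ranges of week 4 and PBS overlapped. The call of Ctsl was lost when any of 10 of the 16 week 4 and PBS libraries was left out, and without library 5 of week 4 its value was 0.47 (adjusted p = 0.18). The call of Ctsd was lost without that library alone (0.44, adjusted p = 0.053). Ctsd was at 0.54 (adjusted p = 0.0847) and Ctsl at 0.66 (adjusted p = 0.192) under the lane 2 term, neither called, and without the lane 2 libraries they were at 0.35 and 0.32.

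Library 1 of PBS had the highest Ctsb, Ctsd and Ctsl of its group, and its summed level of macrophage markers was 1279 CPM, against 105.6 to 246.6 CPM in the other 7 PBS libraries. Without it the log2 fold change of Ctsb was 0.10 in place of -0.15, and that of Ctsd 0.62. Macrophages hold much lysosomal RNA, and in whole muscle fewer cells of a type and less RNA per cell cannot be told apart. The summed macrophage markers were 171 to 323 CPM at week 4 (median 274) and 105.6 to 1279 CPM in PBS muscle (median 154), with 2 of 17 tested markers called higher (Cd163 and Cd14) and 3 lower. Without library 1 of PBS, 10 of the 17 were called higher and 0 lower. None of the 18 listed macrophage markers was at 0 in any week 4 library. Of 13 listed neutrophil markers, 9 were abundant enough to test and all 9 were higher at week 4, with a summed level of 62.6 to 271 CPM at week 4 and 2.00 to 15.9 CPM in PBS muscle. Mpo and Elane, genes of the primary granules, were at 0 in 6 of 8 week 4 libraries each, and Ly6g was at 0 in 0 of 8 week 4 libraries and 7 of 8 PBS libraries. Of 7 listed erythroid markers 6 were tested, and 4 were called higher at week 4 and 6 at week 3 against PBS. Their summed level had a median of 291 CPM in PBS muscle, 201 CPM at week 1, 164 CPM at week 2, 850 CPM at week 3 and 683 CPM at week 4, and the highest library, 7331 CPM, was of week 3. The part of these cell types in the members' levels was not tested.

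The calls of the 2 membrane glycoproteins of the lysosome also differed. Lamp2, whose product is needed for autophagosome fusion and is missing in Danon disease, reached 109.4, 138.6 and 197.8 CPM at week 4, against 88.19, 116.5 and 132.5 CPM in PBS muscle (log2 0.32 ± 0.11, edgeR adjusted p = 0.033). It was at 0.33 with the lane 2 term (adjusted p = 0.117) and 0.15 without the lane 2 libraries. Lamp1, its close relative, reached 349.9, 420.3 and 482.4 CPM at week 4, against 371.7, 396.7 and 460.4 CPM in PBS muscle, and was not called (0.04 ± 0.08, adjusted p = 0.76). The difference between the fold changes of the 2 genes was not tested.

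Of the 6 lysosomal genes, 5 had a promoter window, and 4 of these hold the motif described next. The members were picked by symbol with Tfeb and Tfe3 among them, so their choice may not be independent of this motif. TFEB and TFE3 bind an E-box, CACGTG, and the following stretches show where it stands in the 4 lysosomal genes that hold it; capitals mark the motif, and bases are given 5′ to 3′ on the gene's strand in RefSeq, build GRCm38.p6.
Lamp1, chr8:13159086-13159160, plus strand: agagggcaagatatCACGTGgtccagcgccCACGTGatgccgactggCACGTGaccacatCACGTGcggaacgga
Ctsd, chr7:142388048-142388077, minus strand: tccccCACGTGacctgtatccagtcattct
Ctsd, chr7:142387908-142387937, minus strand: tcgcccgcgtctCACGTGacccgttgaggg
Gaa, chr11:119267811-119267840, plus strand: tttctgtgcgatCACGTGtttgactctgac
Ctsl, chr13:64370739-64370768, minus strand: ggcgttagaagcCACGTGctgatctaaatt
The stretch of Lamp1 is the last 75 bases before its RefSeq start and holds the motif 4 times, at 61, 45, 28 and 15 bases before the start. In Ctsd the motif begins 245 and 98 bases before the RefSeq start, in Gaa 140 and in Ctsl 236. GENCODE M21 starts the gene further upstream than RefSeq in Ctsd (211 bases), Gaa (76) and Ctsl (370), so the second Ctsd site and the Ctsl site lie inside the gene by that annotation. Promoter windows (250 bases before to 50 after the start) were found for 30 of the 37 members, 34 in all. Tfeb, Tfe3 and Nbr1 had more than 1 window each. The windows of all genes were not limited to genes tested here. Of the 34, 8 held CACGTG on either strand, or 23.5%, against 7.15% of all 32851 windows. By role these were 4 of 5 lysosomal windows, 3 of 4 windows of conjugation enzymes (Atg7, Atg5 and Atg3) and Atg14. GTAAACA, a FoxO motif that does not overlap CACGTG, stood on either strand in 0 of the 34 member windows and 3.65% of all. Of the 8 genes with CACGTG, Gaa, Ctsd and Ctsl were called at week 4, where 29.4% of all genes were. Lamp1, with its 4 copies, Atg14 and the 3 conjugation enzymes were not called. With the lane 2 term Gaa was called and Ctsd and Ctsl were not, while Atg7 was. None of the 8 was called without the lane 2 libraries. A link between motif and call was not tested.

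In the ULK1 initiation complex 3 of 5 genes were called higher in the fit of all libraries, where 15.3% of all genes were. Ulk1, the kinase that starts autophagosome formation, measured 78.33, 103.5 and 181.9 CPM at week 4 and 63.35, 76.27 and 83.56 CPM in PBS muscle. Here 7 of 8 week 4 libraries lay above the PBS range. Its fold change was 1.60 (log2 0.68 ± 0.17, edgeR adjusted p = 0.0032), but its level also differed by lane. It was 101.7 to 181.9 CPM in the 5 lane 2 libraries of week 4 and 78.33 to 91.37 CPM in the 3 of lane 4. With the lane 2 term the log2 fold change of Ulk1 was 0.27 (adjusted p = 0.21). Over 11 alternative settings its lowest log2 fold change was 0.17. Atg13, the adaptor that binds ULK1, reached 41.49, 52.13 and 92.79 CPM at week 4, against 27.77, 44.16 and 49.7 CPM in PBS muscle (0.46 ± 0.13, adjusted p = 0.0081), and was at 0.29 with the lane 2 term (adjusted p = 0.184) and 0.11 without the lane 2 libraries. Rb1cc1, the scaffold FIP200, was at 0.41 on the log2 scale (adjusted p = 0.0309), at 0.06 with the lane 2 term and at -0.01 without the lane 2 libraries. Ulk2, the second kinase, was at 0.02, and Atg101, a partner of ATG13, was at -0.39 (adjusted p = 0.0798); neither was called.

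The lipid kinase complex had 2 called genes of 5, where 29.4% of all genes were called. Uvrag, a subunit of the form that acts on late endosomes and autophagosome maturation, reached 12.08, 17.03 and 19.29 CPM at week 4, against 9.873, 11.66 and 13.92 CPM in PBS muscle (log2 0.47 ± 0.14, edgeR adjusted p = 0.012). Ambra1, a Beclin 1 partner, reached 26.75, 36.92 and 52.29 CPM at week 4, against 24.34, 27.7 and 34.26 CPM in PBS muscle (0.46 ± 0.12, adjusted p = 0.0068). For each of them 6 of 8 week 4 libraries lay above the PBS range. Ambra1 was also higher in lane 2 within groups (0.37, adjusted p = 0.00086): its 5 lane 2 libraries of week 4 had a median of 46.2 CPM and its 3 lane 4 libraries one of 27.1 CPM. Neither was called with the lane 2 term, Uvrag at 0.40 (adjusted p = 0.118) and Ambra1 at 0.20 (adjusted p = 0.279), and without the lane 2 libraries they were at 0.32 and 0.09. Becn1, the Beclin 1 core subunit, stood at 34.77, 39.3 and 45.27 CPM at week 4 and 32.48, 40.15 and 47.14 CPM in PBS muscle (-0.03 ± 0.08, adjusted p = 0.796). Pik3c3, the VPS34 kinase itself, was at 0.15 and Atg14, which sends the complex to the forming autophagosome, at 0.24, neither called.

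Wipi2, a lipid-binding protein that recruits the conjugation machinery, stood at 39.84, 51.81 and 74.66 CPM at week 4 and 25.25, 39.58 and 46.74 CPM in PBS muscle. Its log2 fold change was 0.45 ± 0.13 (edgeR adjusted p = 0.0082). It was 0.31 under the lane 2 term (adjusted p = 0.163) and 0.17 without the lane 2 libraries. Its relative Wipi1 was at 0.18 and Atg9a, the lipid scramblase of the membrane source vesicles, at 0.28, neither called. None of the 6 conjugation enzymes was called at week 4, where 29.4% of all genes were. Atg3, Atg4b, Atg5, Atg7, Atg12 and Atg16l1 had log2 fold changes of -0.15 to 0.17. Of these, 1 had an unadjusted p under 0.05, where 41.7% of all genes did. With the lane 2 term Atg7, the E1-like enzyme of the system, was called at 0.35 (adjusted p = 0.0403). Tfeb, a master regulator of lysosomal genes, reached 51.77, 64.93 and 87.22 CPM at week 4, against 39.92, 44.15 and 66.59 CPM in PBS muscle (0.40 ± 0.14, adjusted p = 0.026), and was at 0.23 with the lane 2 term (adjusted p = 0.317) and 0.28 without the lane 2 libraries. Tfe3, its relative, was at 0.36 (adjusted p = 0.052) and not called. It was itself higher in lane 2 within groups (0.31, adjusted p = 0.030). Without the lane 2 libraries its fold change over PBS was -0.08.

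**Figure D2:**
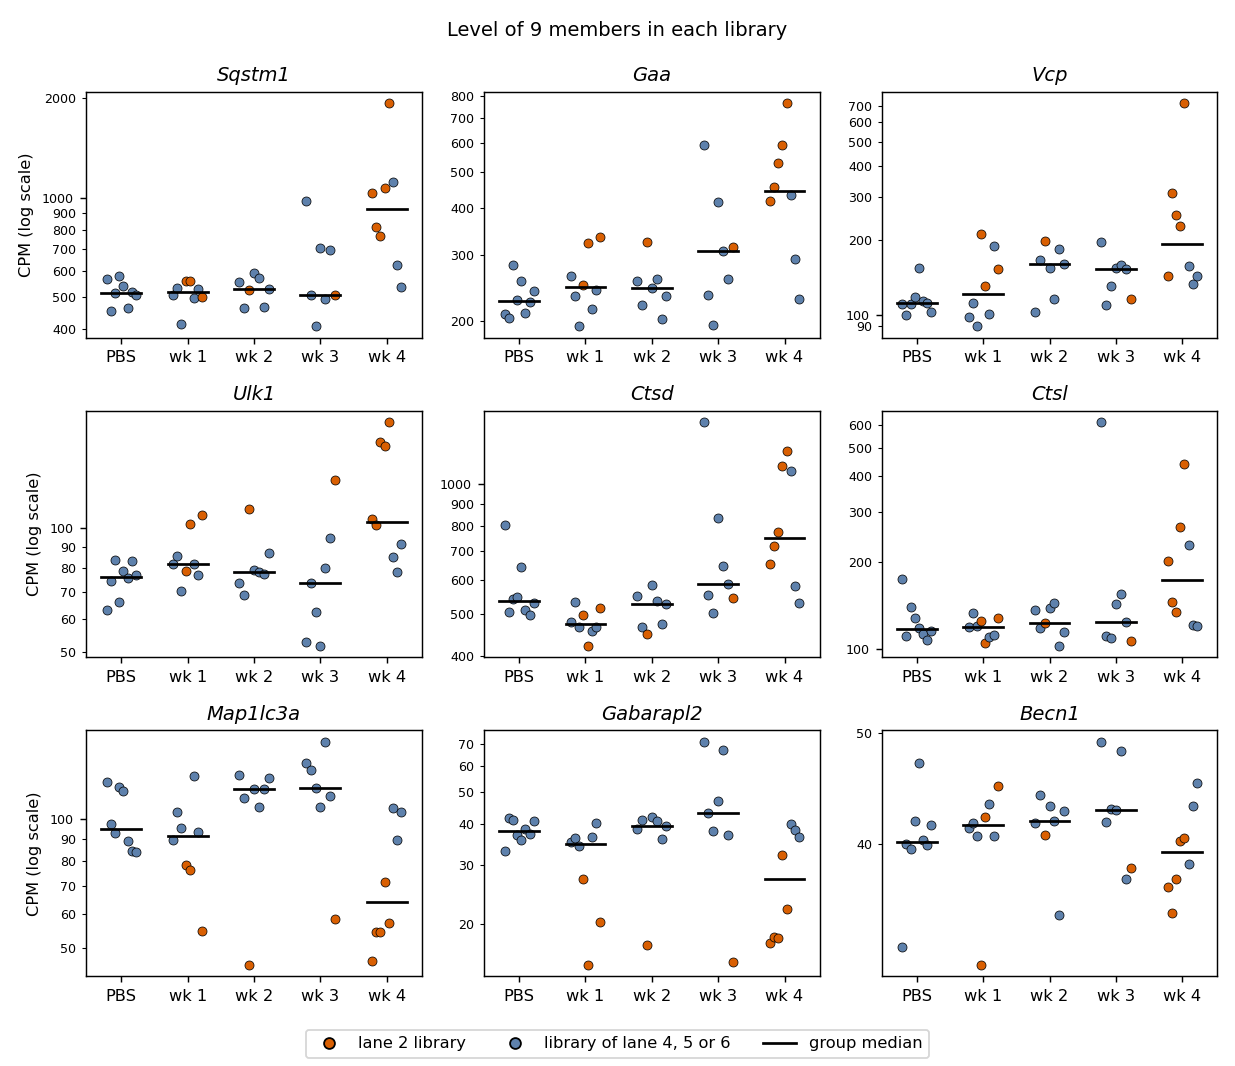
Level in CPM (log axis) of 9 members in each of the 38 libraries by group, PBS to week 4, with the group median as a line and lane 2 libraries in orange. For Sqstm1 and Gaa 7 of 8 week 4 libraries lie above the PBS range, and for Map1lc3a and Gabarapl2 the lane 2 libraries of every group that has one lie low.

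The ATG8 family, whose proteins coat the autophagosome, had 0 of 5 genes called against PBS at week 4, where 29.4% of all genes were. Of the 5, 3 had an unadjusted p under 0.05, where 41.7% of all genes did. Map1lc3b, the LC3B gene, measured 183.2, 235 and 407.2 CPM at week 4 and 164.1, 202 and 243.5 CPM in PBS muscle (log2 0.40 ± 0.17, edgeR adjusted p = 0.079). Gabarapl1, a known FoxO target, measured 50.94, 78.14 and 121.1 CPM at week 4 and 51.56, 61.04 and 92.25 CPM in PBS muscle (0.29 ± 0.19, adjusted p = 0.26). Gabarap was at -0.08. Map1lc3a, the LC3A gene, measured 46.87, 64.21 and 105.8 CPM at week 4 and 83.86, 94.93 and 121.9 CPM in PBS muscle (-0.46 ± 0.19, adjusted p = 0.059), and the authors' deposited table gives -0.42 for it with an adjusted p of 0.045. Gabarapl2, the GATE-16 gene, was at -0.45 (adjusted p = 0.12).

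The low values of both genes lay in lane 2. Map1lc3a was 46.87 to 71.26 CPM in the 5 lane 2 libraries of week 4, and 89.44 to 105.8 CPM in the 3 lane 4 libraries, inside the PBS range. Lane 2 libraries of weeks 1 to 3 were as low, at 45.73 to 78.24 CPM. Gabarapl2 was 17.47 to 32.36 CPM in lane 2 and 36.66 to 39.95 CPM in lane 4 at week 4, with 33.22 to 41.76 CPM in PBS muscle. With the lane 2 term the log2 fold change over PBS was 0.00 for Map1lc3a and 0.11 for Gabarapl2, 0.66 for Map1lc3b (adjusted p = 0.026) and 0.60 for Gabarapl1 (adjusted p = 0.064).

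Within groups 19 of the 37 genes differed between lane 2 and the other lanes, 9 higher and 10 lower in lane 2, against 16.5% of all genes higher and 18.5% lower. The difference between lane 2 and the other lanes within groups ran from -0.996 (Gabarapl2) to 0.61 (Vcp) on the log2 scale. Exon length here is that of all annotated exons of a gene merged. The members of shortest exon length, Map1lc3a, Atg101, Gabarap, Gabarapl1 and Gabarapl2 at 1181 to 2325 bases, were all lower in lane 2. All of these but Atg101 are of the ATG8 family. The remaining ATG8 gene, Map1lc3b, was also lower (-0.42) at 7517 bases. The next by length were Ctsd (2351 bases, -0.0036), Atg5 (2352 bases, -0.21) and Bag3 (2562 bases, 0.25). Rb1cc1, the longest at 14690 bases, was higher (0.52). Across the 37 genes the lane 2 difference and the log2 exon length had a Pearson r of 0.570 and a Spearman rho of 0.408; the genes share the same libraries and are not independent. Ctsd, Lamp2 and Atg14 had lane 2 differences within 0.02 of 0.

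**Figure D3:**
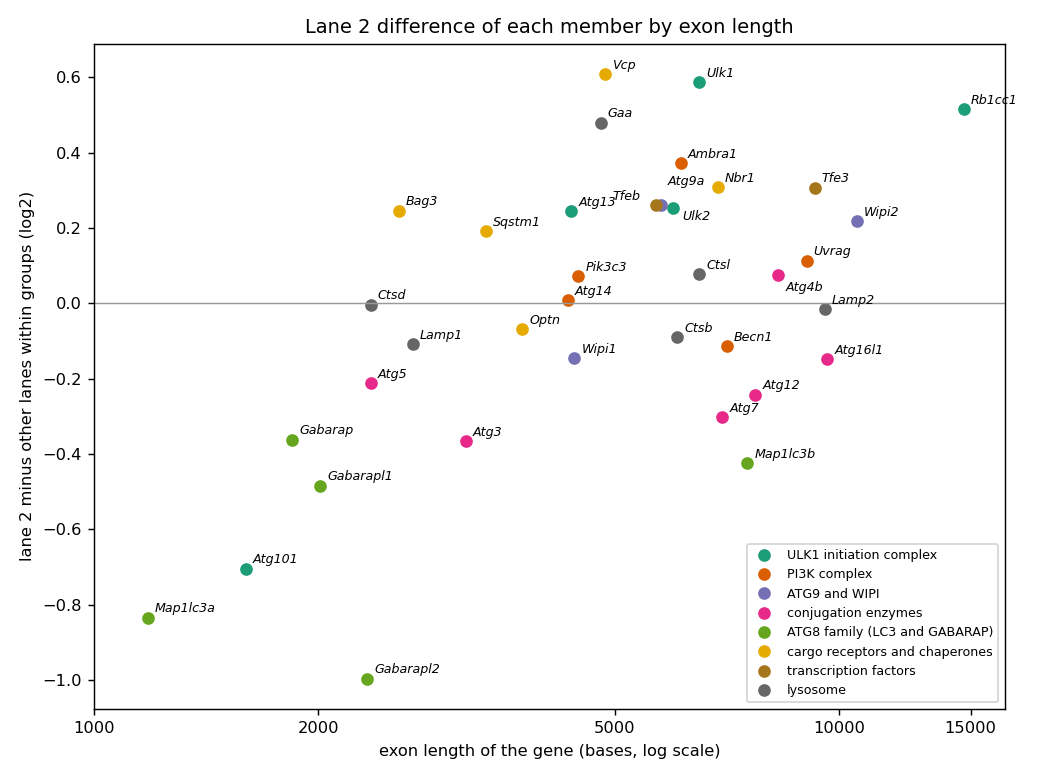
Difference between lane 2 and the other lanes within groups (log2, vertical) against exon length in bases (horizontal, log axis) for the 37 members, coloured by role. Map1lc3a, Atg101 and Gabarapl2 lie lowest at -0.83, -0.70 and -0.996, and Vcp, Ulk1 and Rb1cc1 highest at 0.61, 0.59 and 0.52.

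Week 4 shared lanes with some of the 22 libraries of weeks 1 to 3, 5 on lane 2 and 7 on lane 4. The rest ran on lanes 5 and 6, which hold no week 4 library. Of the fits below, only that of lanes 2 and 4 is confined to shared lanes. Over all 38 libraries 13 members were higher and 2 lower (Map1lc3a and Atg101) at week 4 than in the mean of weeks 1 to 3, against 16.6% and 12.5% of all genes. With the lane 2 term 9 were higher and 0 lower, against 8.5% and 6.32% of all genes: Sqstm1, Gabarapl1, Bag3, Ctsd, Map1lc3b, Nbr1, Gaa, Atg7 and Atg13. In the 20 libraries of lanes 2 and 4 with a lane term, 6 members were higher and 0 lower, where 5.39% of all genes were higher and 3.26% lower, and 16 members had an unadjusted p under 0.05 (28.1% of all genes did). They were Sqstm1 (log2 0.73, adjusted p = 0.023), Gabarapl1 (0.62, adjusted p = 0.049), Ctsd (0.57, adjusted p = 0.029), Gaa (0.51, adjusted p = 0.0396), Bag3 (0.50, adjusted p = 0.042) and Uvrag (0.32, adjusted p = 0.045) by edgeR. The 2 genes called lower over all libraries had values of -0.16 (Map1lc3a) and -0.20 (Atg101) in this fit. Without the lane 2 libraries 0 members were called, where 0.598% of all genes were, and 2 had an unadjusted p under 0.05, where 8.46% of all genes did.

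Within lane 2 the 5 week 4 libraries lay wholly above the 5 libraries of weeks 1 to 3 for 8 members and wholly below for 1, Ulk2, against 8.21% of all genes wholly above and 7.07% wholly below. The 8 were Sqstm1, Nbr1, Wipi1, Uvrag, Ctsl, Ctsd, Bag3 and Gaa. Sqstm1 was 764.1 to 1935 CPM at week 4 and 502.4 to 560.7 CPM at weeks 1 to 3, and Gaa 418.7 to 768.1 CPM at week 4 and 249.8 to 335.3 CPM at weeks 1 to 3. Within lane 4 the 3 week 4 libraries overlapped the 7 of weeks 1 to 3 for all 37 genes, where 1.46% of all genes did not overlap. The week 4 libraries of lane 4 differed among themselves: Sqstm1 was at 1118, 626.9 and 536 CPM in libraries 6, 7 and 8, and Ctsd at 1072, 580.7 and 531 CPM.

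Directly against week 3, 4 members passed at week 4, 3 higher and 1 lower, where 2.27% of all genes were higher and 1.24% lower, 3.51% in all: Sqstm1 (log2 0.68, edgeR adjusted p = 0.0304), Ulk1 (0.63, adjusted p = 0.0378) and Bag3 (0.54, adjusted p = 0.0396) were higher and Map1lc3a was lower (-0.67, adjusted p = 0.046). With the lane 2 term 0 members were called and 6 had an unadjusted p under 0.05, where 0.177% of all genes were called and 12% had such a p, and 0 were called without the 4 libraries of unusual read assignment. The authors' deposited table of week 4 over week 3 lists 1 member, Map1lc3a, as lower, and does not list Sqstm1, Ulk1 or Bag3. An F test over all 5 groups called 12 members, against 21.9% of all genes: Sqstm1, Nbr1, Ulk1, Atg13, Wipi2, Uvrag, Lamp2, Ctsl, Ctsd, Bag3, Vcp and Gaa.

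**Figure D4:**
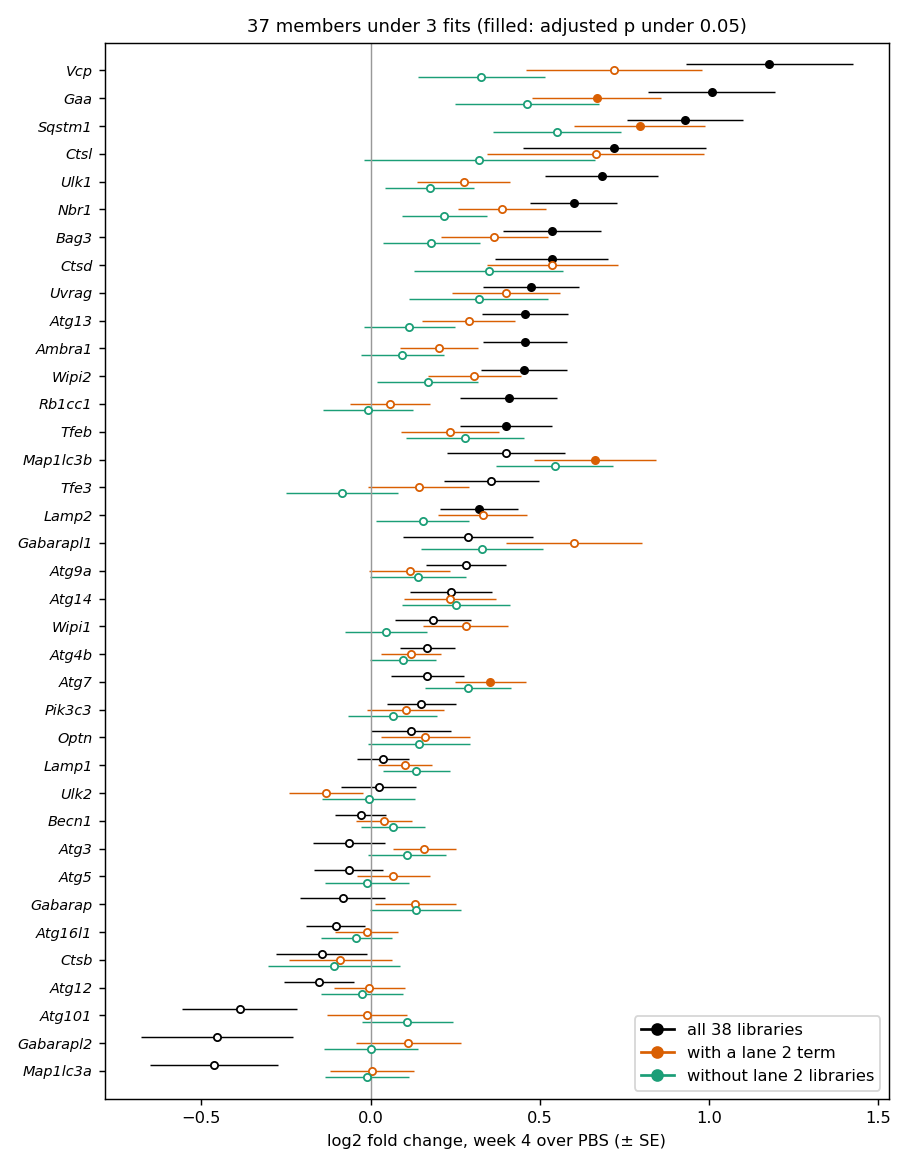
Log2 fold change at week 4 over PBS with its standard error for the 37 members (rows) in edgeR fits of all 38 libraries (black), with a lane 2 term (orange) and without the 10 lane 2 libraries (green), filled where the adjusted p was under 0.05. Of the 15 genes with a filled black point, Sqstm1 and Gaa also have a filled orange one, as do Map1lc3b and Atg7, and no green point is filled, while Map1lc3a moves to -0.46, 0.00 and -0.01 in the 3 fits.

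The spread within groups was itself uneven. Library 5 of week 4 had the highest level of its group for 21 of the 37 genes and the lowest for 0. Its summed fibre markers were 105700 CPM, against 124100 to 165800 CPM in the other 7 week 4 libraries. Library 1 of week 3 was the highest of its group for 25 of the 37, among them Ctsl at 613.6 CPM and Ctsd at 1392 CPM. Summed over the 37 genes, levels were 3834 to 4655 CPM in PBS muscle, 3776 to 4253 CPM at week 1, 3973 to 4379 CPM at week 2, 3896 to 7179 CPM at week 3 and 4308 to 8755 CPM at week 4. No member separated week 4 from PBS completely, against 1.54% of all genes.

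Per kilobase of exon, the most abundant members in PBS muscle were Ctsd (243 ± 44.1 CPM per kb, SD, n = 8), Sqstm1 (155 ± 13.4), Lamp1 (153 ± 12.9), Map1lc3a (85.1 ± 13.6) and Gabarap (58.1 ± 6.08). Sqstm1 and Lamp1 did not differ beyond their spread. At the other end stood Atg7 (1.61 ± 0.162), Uvrag (1.31 ± 0.138) and Tfe3 (1.06 ± 0.268). The length used merges the exons of all annotated transcripts of a gene, so this order depends on the annotation.

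Other genes of the pathway, from lists of related genes, included higher and lower calls at week 4, to be read against 15.3% of all genes higher and 14.1% lower. Of 13 further cargo receptors 8 were higher and 1 lower, led by Retreg1 (FAM134B, a receptor for endoplasmic reticulum, log2 1.55, edgeR adjusted p = 0.00091), Calcoco1 (0.53, adjusted p = 0.0029) and Wdfy3 (ALFY, a scaffold for aggregates, 0.50, adjusted p = 0.0031). Retreg1 was 163.7 to 1680 CPM at week 4 and 158.2 to 203.6 CPM in PBS muscle. Of 13 fusion genes 6 were higher and 1 lower, led by Plekhm1 (0.66, adjusted p = 0.0016), Epg5 (0.54, adjusted p = 0.0021) and Vps11 (0.32, adjusted p = 0.0032), and of 18 other autophagy genes 4 were higher and 2 lower, with Atg10 at -0.81 (adjusted p = 0.0016), Atg2b at 0.45 and Atg2a at 0.55.

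Lysosomal genes outside the 37 were called in both directions, again beside 15.3% of all genes higher and 14.1% lower. Of 21 membrane and ragulator genes 2 were higher and 10 lower, with Npc1, the cholesterol exporter, at 1.08 (edgeR adjusted p = 8.8e-05), Tmem192 at -0.45 (adjusted p = 0.0052) and Lamtor1 at -0.48 (adjusted p = 0.0075). Of 36 hydrolases 5 were higher and 3 lower, with Aga at -0.56, Man2b1 at 0.42 and Idua at 0.30, which is no more than the share of all genes. Of 17 subunits of the V-ATPase, the proton pump, 0 were higher and 3 lower: Atp6v0b (-0.34), Atp6v1g1 (-0.55) and Atp6v1e1 (-0.31). With the lane 2 term only Retreg1 (1.45, adjusted p = 0.021), Npc1 (0.90, adjusted p = 0.0058) and 1 lower gene of these 6 lists were called, and without the lane 2 libraries 0.

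**Figure D5:**
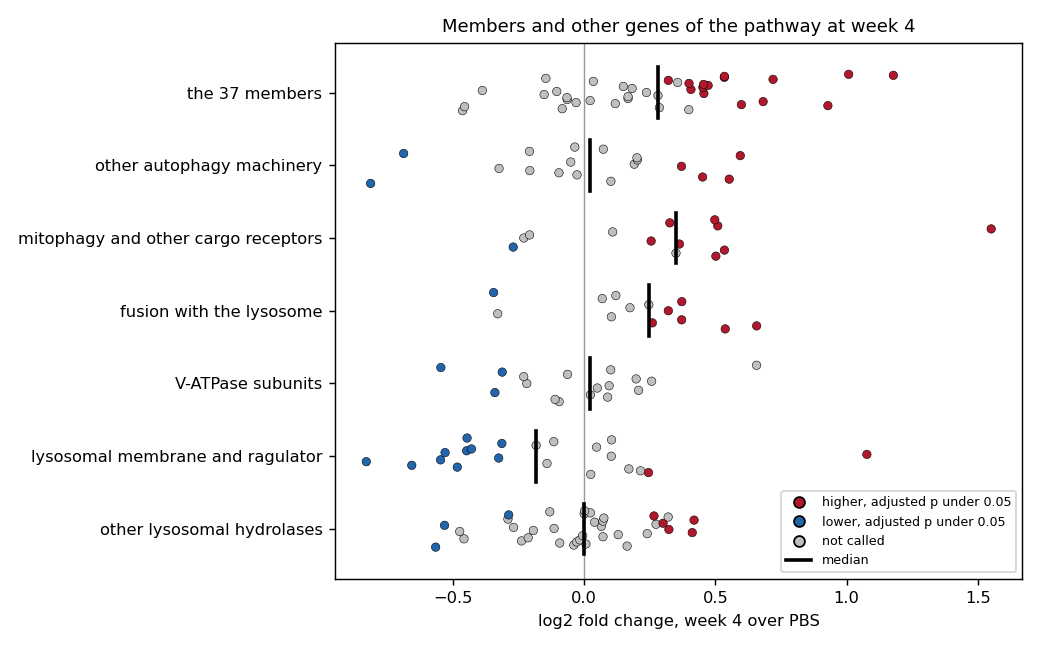
Log2 fold change at week 4 over PBS (horizontal) of each gene of the 37 members and of 6 lists of related genes (rows), coloured by call, with the median as a bar. The median was 0.28 for the members, 0.35 for other cargo receptors and -0.18 for lysosomal membrane and ragulator genes.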

How the data were processed

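Per the labels' protocols, total RNA was extracted from frozen gastrocnemius by Trizol and made into libraries with a TruSeq RNA kit. For the deposited counts per gene, the authors used FastQC, HISAT2, HTSeq and GRCm38.p5, per the submitters' processing notes; versions and the strand setting are not given in the sources used here. The authors' deposited tables give log2 fold changes and, per the file headers, a p-value and adjusted p-value per gene; DESeq2 is named in the submitters' processing notes. Of 39 samples, 38 had a count file analysed here. Reads in genes made up 44.5% to 80.9% of each library; the lines for unassigned reads (no gene 3.80% to 10.6%, more than 1 gene 2.78% to 11.0%, more than 1 place 7.47% to 27.8%) stayed out of library sizes and tests. No library duplicated another (chi-square per degree of freedom at least 14.2 within groups). Gene names and exon lengths are from GENCODE M21 (45229 of 46078 genes matched). The exon length of a gene is that of the merged exons of all its annotated transcripts.

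The test was the quasi-likelihood F test of edgeR 4.0.16 (R 4.3.3) after TMM scaling and filterByExpr (minimum count 10), with all 5 groups in 1 fit (common dispersion 0.0769), Benjamini-Hochberg adjustment over all 14689 genes and calls at an adjusted p under 0.05. Standard errors were computed as log2 fold change divided by the root of F, and CPM use TMM-scaled library sizes. The procedure was also run on simulated data that held no lane effect, so that run cannot bear on the lane differences. Lane was read from the names of the files. Values are printed for the 10 members of smallest p at week 4 over PBS and for 13 genes printed whatever their p, and for up to 3 genes of smallest p per related list; Retreg1 and the other genes named for lane or library effects were chosen after their values were seen. Of 166 genes on the related lists 165 matched. The members, lists and tests were chosen with earlier results of these data known. Alternatives were RLE and upper-quartile scaling, no filter, a mean of at least 5 CPM, lane terms, lanes left out, only the groups compared, 4 libraries of unusual read assignment left out, DESeq2 1.42.0, limma 3.58.1 voom with quality weights, and each library left out. Promoter windows are RefSeq's.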

Additional observations from a re-analysis of the deposited data

Results flagged for a closer look

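Library 5 of week 4, the shallowest, was far above the other week 4 libraries for Sqstm1 (1935 CPM), Ctsl (439.6 CPM), Bag3 (264.4 CPM) and Vcp (718.3 CPM). Library 1 of week 3 was far above the other week 3 libraries for Nbr1 (188.5 CPM), Atg13 (61.3 CPM), Wipi2 (66.8 CPM), Ctsl (613.6 CPM) and Ctsd (1392 CPM). Over 8% of its reads lay in no gene, as in library 3 of week 3 and library 6 of week 2. Library 1 of PBS, with high macrophage markers, was far above the other PBS libraries for Ctsb (661 CPM) and Ctsd (803.3 CPM) and far below them for Atg13 (27.77 CPM) and Wipi2 (25.25 CPM). Library 3 of week 2, the lane 2 library of that group, was far below the others for Map1lc3a (45.73 CPM) and far above them for Nbr1 (142.8 CPM) and Ulk1 (111.8 CPM). Single values far from their group were Sqstm1 in library 3 of week 1 (414.1 CPM, low), Becn1 in library 4 of week 1 (31.29 CPM, low), Becn1 in library 6 of week 2 (34.64 CPM, low) and Vcp in library 5 of PBS (154.5 CPM, high). These are 20 values from 100 groups of 7 or 8 libraries tested by the gap to the nearest library over the group's range, where chance gives about 1 in 20.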

How the results depend on the processing

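No paired analysis was possible because the labels number each sample separately, the replicate numbers used here follow the order of the series within a group, and nothing ties equal numbers to a litter, batch or day. The count of members higher at week 4 over PBS was 15, and 13 to 17 under other scaling, filters, the groups compared alone, the unusual libraries left out, DESeq2 and limma voom. It was 4 with a lane 2 term, 0 without lane 2 libraries and 0 with a term for every lane. The count lower was 0, but 1 with upper-quartile scaling, a mean of at least 5 CPM or only the groups compared, and 4 with limma voom. Over weeks 1 to 3 the count higher was 13, but 6 in lanes 2 and 4 and 0 without lane 2 libraries, and the count lower was 2, but 1 with no filter or only the groups compared and 0 with a lane 2 term, without lane 2 libraries, with a term for every lane and in lanes 2 and 4. Over week 3 the count was 4, but 1 with no filter, 7 with DESeq2, 17 with limma voom, and 0 with the 3 lane settings, in lanes 2 and 4, with only the groups compared and without the unusual libraries. The F test called 12, but 7 with a lane 2 term, 0 without lane 2 libraries, 3 with a term for every lane and 21 with limma voom. The causes were not tested.

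With 1 library left out, the counts ranged over 10 to 17 (higher, week 4 over PBS, lowest without library 5 of week 4), 0 to 2 (lower), 7 to 17 and 1 to 3 (over weeks 1 to 3), 0 to 9 (over week 3, 0 without library 3 or 4 of week 3 or 4 or 5 of week 4), 7 to 19 (F test) and 0 to 0 for weeks 1, 2 and 3. Sqstm1, Nbr1, Ulk1, Atg13, Wipi2, Uvrag, Ambra1, Bag3, Vcp and Gaa were called in all 16 such fits of week 4 over PBS. Tfeb lost its call without library 1, 6 or 8 of PBS or 5 of week 4, Lamp2 without 4, 5 or 8 of PBS or 4 or 5 of week 4, and Rb1cc1 without 1, 2 or 5 of PBS or 3 or 5 of week 4. Among the 20 genes named by the rule, the fold change over PBS changed sign for Map1lc3a (0.0036 with a lane 2 term, 0.045 with a term for every lane), Becn1 (0.039 with a lane 2 term, 0.065 without lane 2 libraries, 0.046 with a term for every lane, -0.070 to 0.0050 with 1 library left out, above 0 without library 5 of PBS) and Ctsb (-0.19 to 0.10 with 1 library left out, above 0 without library 1 of PBS). Over all 37, 7 changed sign with a lane 2 term, 8 without lane 2 libraries and 8 with a term for every lane, among them Gabarapl2 (0.11 with a lane 2 term) and, of the 15 called genes, Rb1cc1 (-0.0087 without lane 2 libraries). The tally of macrophage markers without library 1 of PBS was added after the data were seen. No setting varied the depth.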
